A study of Mus musculus with 9 samples.

Results

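Somatostatin (Sst) interneurons were taken from single-nucleus RNA sequencing of the mouse cortex and hippocampus as 282 nuclei of 74895. Nuclei with 200 to 5000 genes and at most 10% mitochondrial molecules were considered. A member carried at least 3 unique molecular identifiers (UMIs, each standing for 1 captured RNA molecule) of Gad1 and Gad2 together and more of these than of the glutamate transporters Slc17a7 and Slc17a6. It also carried at least 2 UMIs of Sst, no fewer than of Pvalb, and none of Vip, Drd1 or Drd2. Each library was 1 male wild-type C57BL/6 mouse, and the 9 mice formed 3 groups of 3, which the labels set apart by age and virus as young AAV-EGFP mice, aged AAV-EGFP mice, and aged mice given AAV-B3GNT3 (aged AAV-B3GNT3). All of them, young controls included, had received an adeno-associated virus (AAV) by retro-orbital injection 8 weeks before the tissue was taken. The capsid targets brain vessels and a promoter active in endothelial cells drives the cargo. In the control virus this was the fluorescent protein EGFP, and in the treatment virus it was EGFP together with B3GNT3, a glycosyltransferase that lengthens O-linked glycans of mucins. The aged mice came from another supplier than the young mice, so that age and supplier cannot be told apart. Members were thus selected on measured UMIs of Sst and of the other 8 genes, and the levels of those genes within them are given as a description. The young mice gave 16, 11 and 19 Sst nuclei, the aged AAV-EGFP mice 37, 72 and 63, and the aged AAV-B3GNT3 mice 20, 13 and 31.

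Somatostatin interneurons arise in the medial ganglionic eminence (MGE) of the embryo, as parvalbumin interneurons do, under a programme that includes the transcription factors Nkx2-1, Lhx6, Sox6 and Satb1. They release GABA together with the peptide somatostatin, which acts on Gi-coupled receptors, and most of them contact the dendrites of excitatory neurons. Transcription of the peptide gene is a textbook case of regulation by cAMP through the factor CREB, and somatostatin mRNA has long been measured in the aged brain.

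Because Sst chose the members and its level is followed through the groups below, its promoter is shown. The gene is a protein-coding gene of 1386 bp on the minus strand at chr16:23889573-23890958 (GRCm38, GENCODE vM21, ENSMUSG00000004366), and no other counted gene overlaps it. The RefSeq window of 300 bases at chr16:23890795-23891094 of GRCm38.p6 runs from 250 bases before the RefSeq start of transcription to 50 bases after it. It is printed on the gene's own strand with the cAMP response element in capitals.
Sst promoter: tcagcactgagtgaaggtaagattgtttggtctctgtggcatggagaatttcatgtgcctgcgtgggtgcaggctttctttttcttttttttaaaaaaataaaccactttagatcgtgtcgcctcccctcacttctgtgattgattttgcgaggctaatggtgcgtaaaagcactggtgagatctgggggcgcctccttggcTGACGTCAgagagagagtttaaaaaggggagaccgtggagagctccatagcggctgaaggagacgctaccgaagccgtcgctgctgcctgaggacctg
The window held 1 copy of TGACGTCA, a palindrome that reads alike on both strands, beginning 48 bases upstream of the RefSeq start. GENCODE puts the outer end of the gene further upstream than RefSeq puts the start, so the motif lies within the GENCODE span given above. Of 32851 mouse promoter windows of this length, 588 (1.79%) held the same letters. The match describes the sequence and says nothing of binding in these nuclei.

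The libraries held 47332047 to 79964605 UMIs, and the median kept nucleus held 3233 to 5582. The median Sst nucleus was deeper, with 9072 to 14531 UMIs and 3135 to 4209 genes depending on the library, and the Sst nuclei of a mouse summed to between 122821 and 867376 UMIs. Murine B3gnt3 gave 5 to 15 UMIs per library in all kept nuclei, with 5 to 15 in young, 5 to 13 in aged AAV-EGFP and 8 to 11 in aged AAV-B3GNT3 mice. It gave 0 UMIs in the Sst nuclei of every library, which over 3367190 UMIs allows up to 0.891 CPM (a gene's UMIs over all UMIs of the nuclei, times 1000000). Of the barcodes, 734 appeared in at least 2 libraries. Among Sst nuclei 5 had a barcode found in another library, and none shared it with another Sst nucleus.

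The members lay near the threshold that chose them. Of the 282 nuclei 141 carried 2 Sst UMIs, 64 carried 3 and 77 carried 4 or more, with a maximum of 16. Members held 6.06 to 18.3% of the Sst UMIs of kept nuclei in young mice. They held 20.8 to 32.3% in aged AAV-EGFP and 11.58 to 18.3% in aged AAV-B3GNT3 mice. Most Sst UMIs of every library thus lay in kept nuclei that were not members. By mouse, nuclei with at least 4 UMIs made up 18.8, 0 and 15.8% of the members in young mice. They made up 18.9, 34.7 and 44.4% in aged AAV-EGFP and 15, 15.4 and 19.4% in aged AAV-B3GNT3 mice. The groups overlapped. Pvalb UMIs were present in 7 members and glutamate transporter UMIs in 24. The latter were 9 of 46 members in young, 10 of 172 in aged AAV-EGFP and 5 of 64 in aged AAV-B3GNT3 mice. Just outside the limit stood 405 nuclei with 1 Sst UMI. They met the other criteria and held no Pvalb UMI, a stricter Pvalb limit than that of the members. Lhx6 was detected in 37.5% of these, in 50.4% of members with 2 Sst UMIs and in 52.5% of those with 3 or more. Adarb2, a gene of interneurons from the caudal ganglionic eminence (CGE), ran the other way at 44.0, 26.2 and 12.8%.

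The label was checked against its markers and against nuclei gated in the same way for Pvalb (138 nuclei) and Vip (389 nuclei). Nxph1, which encodes a secreted ligand of neurexins, was detected in 96.5% of Sst nuclei and Lhx6 in 51.4%. The median mouse had 3160 CPM of Nxph1 in Sst nuclei, 2355 in Pvalb nuclei and 114 in Vip nuclei. For Lhx6 the medians were 68.3, 56.0 and 0 CPM. Sox6 showed the same division, with 1064, 932 and 32.6 CPM, and so did Satb1, with 448, 267 and 50.9 CPM. The Sst nuclei thus carried the MGE factors that Vip nuclei had little of. Their median CPM of Adarb2 was 43.1, close to the 32.7 of Pvalb nuclei, whereas Vip nuclei had 17242.

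Other genes separated Sst nuclei from Pvalb nuclei. Grin3a, a glycine-binding subunit of NMDA receptors, had a median of 1063 CPM in Sst nuclei, 50.1 in Pvalb nuclei and 95.4 in Vip nuclei. Reln, the extracellular protein reelin, had 865, 27.3 and 95.2 CPM. The calcium buffer Calb1 had 134, 6.16 and 3.84 CPM. Grin3a, Reln, Calb1, the peptide gene Npy and Crhbp, which encodes the binding protein of corticotropin-releasing hormone, were higher in Sst nuclei than in both other classes in 9 of 9 mice. Elfn1, a postsynaptic organiser of release onto these cells, reached 166 CPM against 4.63 in Pvalb nuclei, but Vip nuclei had 127. The neuregulin receptor gene Erbb4 was lower in Sst nuclei in all 9 mice, at a median of 1666 CPM against 9321 and 9095. These class contrasts describe cells whose genes chose them and carry no test.

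**Figure D1:**
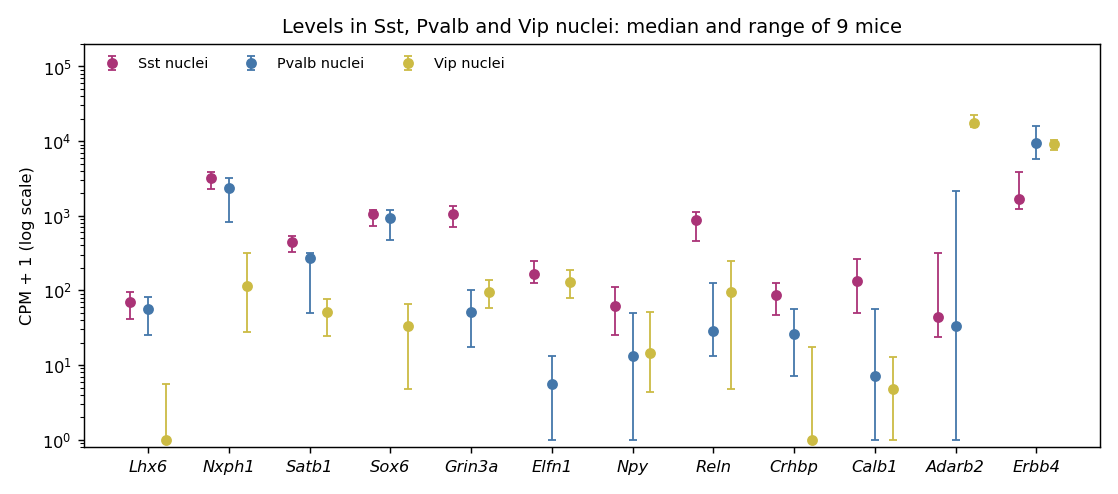
Median CPM plus 1 on a logarithmic axis for 12 genes in Sst, Pvalb and Vip nuclei, with bars from the lowest to the highest of the 9 mice. Grin3a, Reln and Calb1 lie higher in Sst nuclei than in the other classes, Lhx6, Nxph1 and Sox6 are shared with Pvalb nuclei, and Erbb4 is lowest in Sst nuclei.

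Within the class, subtype genes were detected in part of the nuclei. Reln was present in 78.7% of the 282 nuclei (Wilson 95% interval 73.6 to 83.1%), Calb1 in 46.1%, Crhbp in 41.5% and Npy in 38.7% (33.2 to 44.5%). Npy was present in a median of 2.68% of excitatory-gated and 3.31% of oligodendrocyte-gated nuclei, and its source there was not tested. For Reln, Calb1 and Crhbp the median in excitatory-gated nuclei was 14.2, 17.8 and 0.394%. Less often detected were Hpse (13.8%), the somatostatin-related peptide gene Cort (11.7%), the dynorphin precursor Pdyn (10.6%) and Calb2 (5.32%), with medians of 0.560, 0.410, 0.524 and 0.669% in excitatory-gated nuclei. Nos1 was detected in 19.9% of Sst nuclei against a median of 9.25% in excitatory-gated and 0.620% in oligodendrocyte-gated nuclei. In young replicate 2 and aged AAV-B3GNT3 replicate 2 the Nos1 share in Sst nuclei (0 and 7.69%) lay below that in excitatory-gated nuclei (8.67 and 15.8%). Crh was seen in 2 nuclei and Th in 3. Etv1, at 12.4%, lay below its medians of 28.5% in excitatory-gated and 16.4% in oligodendrocyte-gated nuclei. Whether Sst nuclei express it was not tested. The intervals cover counting error only. When each nucleus was thinned to 3000 UMIs the median share of a library was 65.0% for Reln and 18.9% for Npy, so detection depended on depth.

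Chodl marked a small set with a different profile. Chodl is the marker of the long-range projecting somatostatin cells that also make neuronal nitric oxide synthase (Nos1) and neuropeptide Y. It was detected in 13 Sst nuclei (4.61%, 2.71 to 7.73%), 4 of 46 in young, 5 of 172 in aged AAV-EGFP and 4 of 64 in aged AAV-B3GNT3 mice. Of these 13 nuclei 12 had Npy, 11 had Nos1 and 2 had Reln. Among the 269 without Chodl, Npy was detected in 36.1%, Nos1 in 16.7% and Reln in 81.8%. Summed over the nuclei, Nos1 stood at 1490 CPM with Chodl and 27.3 CPM without, and Npy at 319 and 64.8 CPM. Elfn1 was present in 30.8 and 71.0% and Calb1 in 7.69 and 48.0%. A second small set, 15 nuclei with Calb2, had Calb1 in 12 of 15 against 44.2% of the remaining 267. Calb2 was detected in 0 of 46 young nuclei (a count that limits nuclei with a UMI to 6.52% and says nothing of nuclei that express the gene below detection), in 9 of 172 aged AAV-EGFP and in 6 of 64 aged AAV-B3GNT3 nuclei. With so few nuclei per mouse, differences between groups in these sets were not tested.

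**Figure D2:**
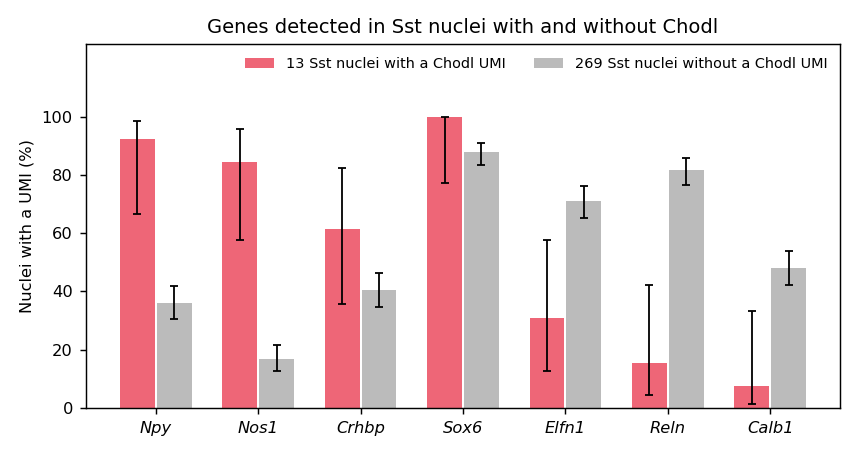
Share of Sst nuclei with at least 1 UMI of each gene (percent), for the 13 nuclei with a Chodl UMI and the 269 without, pooled over 9 mice; bars are Wilson 95% intervals. Npy and Nos1 are found in most nuclei with Chodl, whereas Reln, Elfn1 and Calb1 are found in most or many nuclei without it.

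A further set had few UMIs of the MGE markers. In 12 members Meis2, a transcription factor of striatal and other subcortical GABA neurons, reached at least 5 UMIs, a limit set after these values were seen. Lhx6 was detected in 0 of the 12, which limits nuclei with a UMI, not nuclei that express it, to 25.0%. Sox6 was detected in 1, Nxph1 in 4 and Adarb2 in 9. In the other 270 members Lhx6 was detected in 53.7%, Sox6 in 91.9% and Nxph1 in 99.3%. These 12 nuclei were 4 of 46 in young, 6 of 172 in aged AAV-EGFP and 2 of 64 in aged AAV-B3GNT3 mice. Over the 4 genes of the list for striatal or subcortical origin (Nkx2-1, Meis2, Isl1, Foxp2), the summed level ran from 181 to 912 CPM in young, 28.8 to 102 in aged AAV-EGFP and 26.6 to 115 in aged AAV-B3GNT3 libraries. The genes called in Sst nuclei are also given without these nuclei.

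Markers of other cell types were also counted in the Sst nuclei. The 4 markers of excitatory neurons summed to 16.1 to 73.3 CPM in young, 19.4 to 41.5 in aged AAV-EGFP and 30.4 to 38.6 in aged AAV-B3GNT3 libraries. The 5 oligodendrocyte markers summed to 96.7 to 489, 145 to 278 and 79.7 to 376 CPM, and the 5 astrocyte markers to 277 to 365, 157 to 325 and 95.2 to 368 CPM. The summed astrocyte and oligodendrocyte levels were thus of the size of Sst itself in these nuclei (195 to 379 CPM), and their part in the gene results was not tested. The 5 endothelial markers gave 15 UMIs in all 9 libraries together and Ly6c1 gave 0. The 6 CGE markers summed to 153 to 244, 105 to 463 and 69.0 to 156 CPM, with Sncg at 0. A caller of likely doublets marked 16 of the 282 nuclei.

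Sst nuclei were a larger part of the aged AAV-EGFP libraries than of the other libraries. They formed 0.175, 0.111 and 0.316% of kept nuclei in young mice. They formed 0.515, 0.719 and 0.770% in aged AAV-EGFP mice. They formed 0.324, 0.130 and 0.372% in aged AAV-B3GNT3 mice. All 3 aged AAV-EGFP values lay above the other 6, and the young and aged AAV-B3GNT3 values overlapped. The mean in aged AAV-EGFP mice was 3.32-fold that in young mice, and the mean in aged AAV-B3GNT3 mice was 0.412 of that in aged AAV-EGFP mice. The share counts nuclei by their Sst UMIs, so its test compares how often nuclei reached the Sst limit of the rule and not the number of cells of a type. The 3 groups differed in it when all 280 ways of splitting the 9 mice were enumerated (exact permutation test on F, two-sided, p = 0.0143, 0.0214 after Benjamini-Hochberg adjustment over 2 shares). The pairwise exact permutation tests of aged AAV-EGFP against young and against aged AAV-B3GNT3 mice each gave p = 0.1, the smallest that 3 mice against 3 can give.

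The result held less firmly against other GABA neurons. As a share of the 7836 nuclei that passed the Gad1 and Gad2 criterion, Sst nuclei were 1.61, 0.87 and 3.41% in young, 4.30, 7.46 and 6.45% in aged AAV-EGFP and 3.63, 1.59 and 3.64% in aged AAV-B3GNT3 mice. The aged AAV-EGFP values were again the 3 highest (exact permutation test, p = 0.0214, adjusted p = 0.0214). Without young replicate 1 or 2, aged AAV-EGFP replicate 2 or 3, or aged AAV-B3GNT3 replicate 1 or 3, the exact p was 0.0643, 0.0679, 0.0643, 0.0571, 0.0643 and 0.0643.

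The same mice were then examined with a gate that does not use Sst, chosen after the shares were seen. MGE-gated nuclei met the Gad1 and Gad2 criterion with 0 UMIs of Drd1, Drd2 and Adarb2, at least 1 of Lhx6 and at least 2 of Nxph1. Of the nuclei kept by this gate 117 were also Sst nuclei. These were 17 of 218 nuclei in young, 71 of 321 in aged AAV-EGFP and 29 of 241 in aged AAV-B3GNT3 mice. Pvalb, which the gate does not use, stood at 12.8 to 37.2 CPM. In all there were 780 MGE-gated nuclei, 62 to 146 per library. Their shares of kept nuclei were 0.844, 0.628 and 1.32% in young, 0.863, 1.46 and 1.38% in aged AAV-EGFP and 1.28, 0.669 and 1.14% in aged AAV-B3GNT3 mice. The 3 groups overlapped (exact permutation test, p = 0.514). The difference between aged AAV-EGFP and young means was 1.33-fold with this gate. The number of Sst nuclei depends on the Sst molecules captured per nucleus, so fewer Sst cells and less Sst RNA per cell cannot be told apart from the shares alone.

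**Figure D3:**
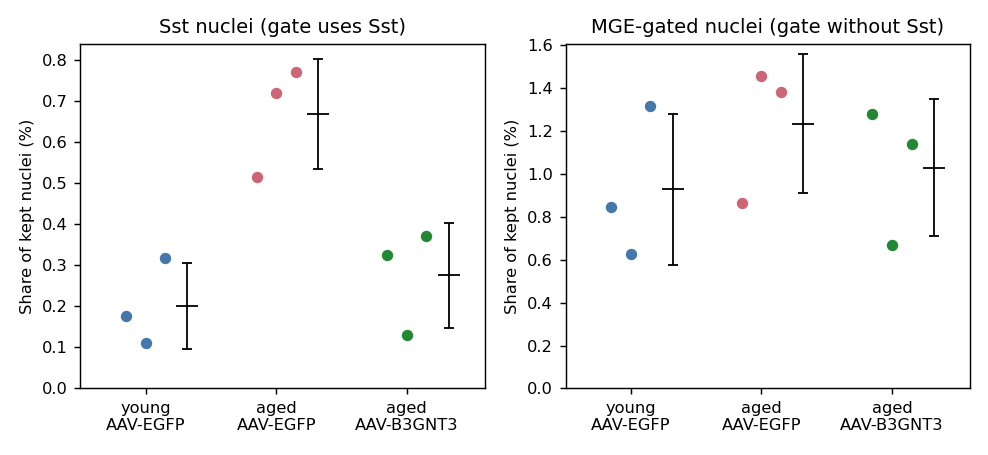
Percent of kept nuclei in each of the 9 mice for Sst nuclei (left) and MGE-gated nuclei selected without Sst (right); points are mice, horizontal lines means and bars SD (n = 3). The aged AAV-EGFP mice stand above the others at left and overlap with them at right.

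The level of Sst RNA in these MGE-gated nuclei is given as a description, and no p-value for it is read. The reason is that 117 members are among these nuclei and the gate was added after the shares were seen. A test would thus repeat the observation that prompted it. The Sst level was 34.7, 30.7 and 31.7 CPM in young mice. It was 66.3, 100.7 and 95.1 CPM in aged AAV-EGFP mice. It was 40, 28.4 and 44.0 CPM in aged AAV-B3GNT3 mice. The aged AAV-EGFP values lay above all others, and young and aged AAV-B3GNT3 values overlapped. The fitted log2 difference was 1.52 between aged AAV-EGFP and young mice and -1.33 between aged AAV-B3GNT3 and aged AAV-EGFP mice. In edgeR's quasi-likelihood fit 8924 genes of this gate were tested, and Sst was one of them. With age 40 genes were called (0.448%, with 0.303% higher and 0.146% lower). With AAV-B3GNT3 28 were called (0.314%, with 0.0224% higher and 0.291% lower). A call of Sst within these counts is not read as a result. The 2 comparisons share the aged AAV-EGFP mice.

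Sst RNA outside the GABA gate and the share of ribosomal protein transcripts moved with the same groups. Nuclei outside the gate failed the Gad1 and Gad2 criterion and can include GABA neurons with few UMIs. In kept nuclei outside the Gad1 and Gad2 gate Sst stood at 5.88, 4.93 and 4.25 CPM in young, 8.41, 13.8 and 9.86 in aged AAV-EGFP and 6.19, 6.30 and 7.22 in aged AAV-B3GNT3 mice. The ratio of the level in MGE-gated nuclei to that outside was 5.90, 6.23 and 7.46 in young, 7.88, 7.29 and 9.64 in aged AAV-EGFP and 6.46, 4.51 and 6.09 in aged AAV-B3GNT3 mice. The ratios of young and aged AAV-EGFP mice overlapped. Less the UMIs per oligodendrocyte-gated nucleus, an MGE-gated nucleus held 0.332, 0.305 and 0.384 Sst UMIs in young, 0.788, 1.06 and 1.02 in aged AAV-EGFP and 0.462, 0.258 and 0.565 in aged AAV-B3GNT3 mice. The level outside the gate, the ratio and this difference all rest on Sst UMIs and are likewise descriptions. Cytosolic ribosomal protein transcripts made up 0.0614 to 0.0668% of UMIs in the MGE-gated nuclei of young, 0.0711 to 0.118% of aged AAV-EGFP and 0.0627 to 0.0695% of aged AAV-B3GNT3 mice (exact permutation test, p = 0.0179). Mitochondrial UMIs of kept nuclei overlapped between the groups, at 0.00681 to 0.00900% in young, 0.00651 to 0.0106% in aged AAV-EGFP and 0.00671 to 0.00789% in aged AAV-B3GNT3 mice. The part of free RNA and of RNA quality in the Sst difference was not tested. Benjamini-Hochberg adjustment ran over the 6 measures computed for these nuclei and their surroundings, the Sst measures among them. The adjusted exact permutation p of the ribosomal share in MGE-gated nuclei was 0.0214.

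**Figure D4:**
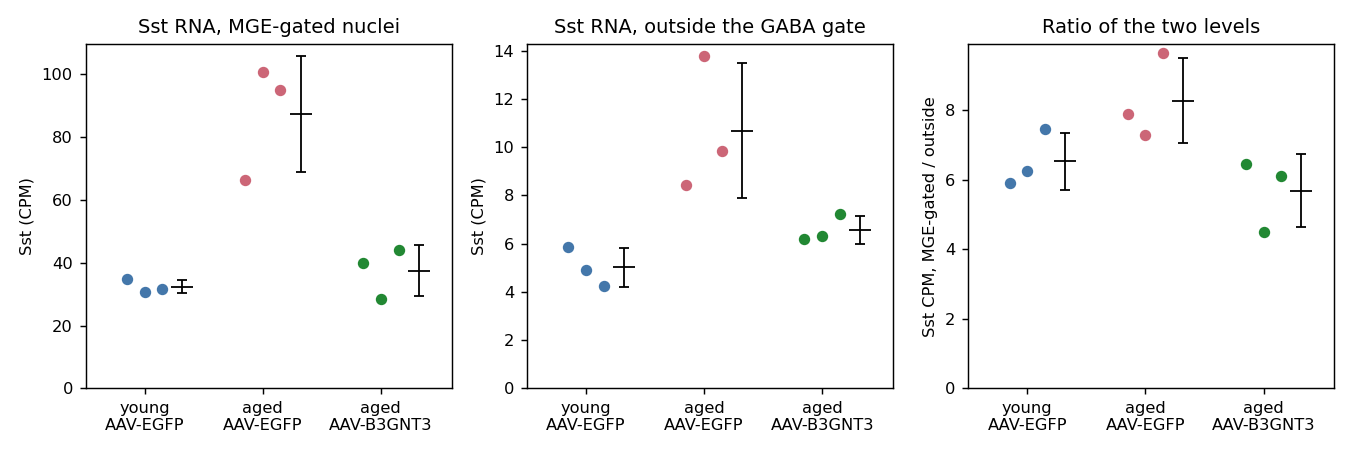
Sst RNA in CPM in MGE-gated nuclei (left) and in nuclei outside the GABA gate (middle), and the ratio of these levels (right); points are the 9 mice, horizontal lines means and bars SD (n = 3). Aged AAV-EGFP mice are highest in the first and second panels, and in the ratio they overlap with young mice.

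Npy, the other abundant peptide gene of these cells, was examined in the same gate. It stood at 16.1, 21.9 and 17.8 CPM in young, 40.8, 41.8 and 36.4 in aged AAV-EGFP and 14.4, 13.5 and 25.5 in aged AAV-B3GNT3 mice. It was lower with AAV-B3GNT3 (log2 fold change -1.21, SE 0.27, edgeR adjusted p = 0.0455), and the change with age was 1.17 (SE 0.28, edgeR adjusted p = 0.0573). Sst nuclei were 17 of 218 nuclei of this gate in young, 71 of 321 in aged AAV-EGFP and 29 of 241 in aged AAV-B3GNT3 mice. Their part in these Npy changes was not tested. Outside the GABA gate Npy ran from 3.90 to 5.53, 6.77 to 12.2 and 4.92 to 6.91 CPM in the 3 groups. In the Sst nuclei themselves Npy was 109, 24.4 and 56.4 CPM in young, 66.7, 101.5 and 89.1 in aged AAV-EGFP and 34.2, 61.4 and 54.4 in aged AAV-B3GNT3 mice, and neither change passed (edgeR adjusted p = 0.619 and 0.522).

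Few genes were called with age within the Sst nuclei. Of 4795 genes that passed the filter on low counts, 1 fell (0.0209%) and 1 rose (0.0209%) at an edgeR adjusted p under 0.05, together 0.0417%, and 514 (10.7%) had an unadjusted p under 0.05. Cntnap5b, a neurexin-family adhesion gene of 713178 bp at chr1:99772765-100485942, stood at 160, 252 and 249.9 CPM in young mice, 75.4, 38.0 and 52.0 in aged AAV-EGFP mice and 53.1, 69.0 and 43.1 in aged AAV-B3GNT3 mice. All young values lay above all aged ones, and 17.0% of the genes tested had young and aged AAV-EGFP values that did not overlap. It fell by 1.97 on the log2 scale (SE 0.27, edgeR adjusted p = 0.000902) and by 2.09 without the Meis2-rich nuclei. Among nuclei with less Meis2 it was detected in 23 of 42 in young and 35 of 166 in aged AAV-EGFP mice. With no upper limit on genes the change was -0.67 (adjusted p = 0.64), and in the MGE gate it was 0.22 (adjusted p = 0.762), both in edgeR. Most nuclei of the MGE gate were not Sst nuclei. Outside the GABA gate Cntnap5b values overlapped, at 171 to 212 CPM in young and 189 to 245 in aged AAV-EGFP mice.

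Vstm2a, an immunoglobulin-domain gene at chr11:16257724-16427310, stood at 109, 106 and 84.7 CPM in young, 196, 233 and 251 in aged AAV-EGFP and 201, 291 and 238 in aged AAV-B3GNT3 mice. The young values lay below all aged ones. It rose by 1.30 on the log2 scale (SE 0.24, edgeR adjusted p = 0.0382). The call was lost without young replicate 3, aged AAV-EGFP replicate 2 or 3, or aged AAV-B3GNT3 replicate 1 or 3 (edgeR adjusted p = 0.187, 0.298, 0.111, 0.0507 and 0.0784), and without the Meis2-rich nuclei (0.0903). In nuclei with at least 4 Sst UMIs (a fit without young replicate 2, which has none) the log2 change was 0.515 and in the MGE gate 0.56, and neither passed (edgeR adjusted p = 0.809 and 0.0797).

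Genes next in order of p did not pass and are given as values. Among those higher with age were Nr3c2, the mineralocorticoid receptor (83.3, 171 and 133 CPM in young, 301, 226 and 246 in aged AAV-EGFP mice), and Pnn, a protein of nuclear speckles (57.7, 16.3 and 28.2 against 86.1, 104 and 120.3 CPM). Also among them were the non-coding genes Gm28375, antisense to Dis3l2, and C130071C03Rik. Lower were the transcription factor genes Zeb1 and Etv5, the ephrin receptor gene Epha4, and Gfod1. Etv5 stood at 89.7, 122 and 92.7 CPM in young, 36.6, 33.4 and 44.5 in aged AAV-EGFP and 72.1, 130.4 and 86.2 in aged AAV-B3GNT3 mice. Gfod1 stood at 211, 269 and 189, 90.4, 87.6 and 96.5, and 152, 314 and 186 CPM. For both, the aged AAV-EGFP mice had the 3 lowest values. Outside the GABA gate the aged AAV-EGFP mice were lowest as well for Gfod1 (139 to 148 CPM against 188 to 276 in the other 6).

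Few genes were likewise called with AAV-B3GNT3, all of them lower. Of the 4795 genes 2 were called (0.0417%) and 327 (6.82%) had an unadjusted p under 0.05. Tmtc2, an endoplasmic reticulum protein of the family that adds mannose to cadherins, stood at 456, 603 and 474 CPM in aged AAV-EGFP mice, 243, 215 and 231 in aged AAV-B3GNT3 mice and 263, 309 and 496 in young mice. Fgf1, the acidic fibroblast growth factor, stood at 172, 101.5 and 148 CPM, 49.3, 69.0 and 52.2 CPM, and 83.3, 73.3 and 80.6 CPM in the same order. The aged AAV-B3GNT3 values of both genes lay below all aged AAV-EGFP values and below all young values; 16.7% of the genes tested did not overlap between the aged groups. Tmtc2 changed by -1.28 (SE 0.23) and Fgf1 by -1.46 (SE 0.26) on the log2 scale, both at an edgeR adjusted p of 0.0307. Without the Meis2-rich nuclei the same 2 genes were called, at -1.35 and -1.50 (edgeR adjusted p = 0.01 and 0.015).

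Both calls depended on single libraries. Tmtc2 lost its call without any of the 3 aged AAV-EGFP mice (replicates 1 to 3, edgeR adjusted p = 0.068, 0.373 and 0.0507) or any of the 3 aged AAV-B3GNT3 mice (0.136, 0.284 and 0.074). Fgf1 lost its call without aged AAV-EGFP replicate 1 or 3 (edgeR adjusted p = 0.132 and 0.106) or any of the aged AAV-B3GNT3 mice (0.201, 0.128 and 0.0996). In the MGE gate Fgf1 kept its change (-1.18, edgeR adjusted p = 0.00372), whereas Tmtc2 changed by -0.45 (adjusted p = 0.469). The gate drew on the same mice and held 117 of the Sst nuclei, so these values are not an independent repeat. Among genes that did not pass, Trhde, the peptidase that degrades thyrotropin-releasing hormone, had 1834, 1681 and 1612 CPM in aged AAV-EGFP and 865, 759 and 1236 in aged AAV-B3GNT3 mice. It overlaps counted non-coding genes on the other strand, as do Sox6, Reln and Nos1, and strand use in counting is not given in the sources used here. The prohormone convertase gene Pcsk1 had higher values with AAV-B3GNT3 (30.1, 20.8 and 32.7 against 49.3, 84.4 and 79.4 CPM). Csnk1g1 had lower values, and Taf1 had higher ones.

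**Figure D5:**
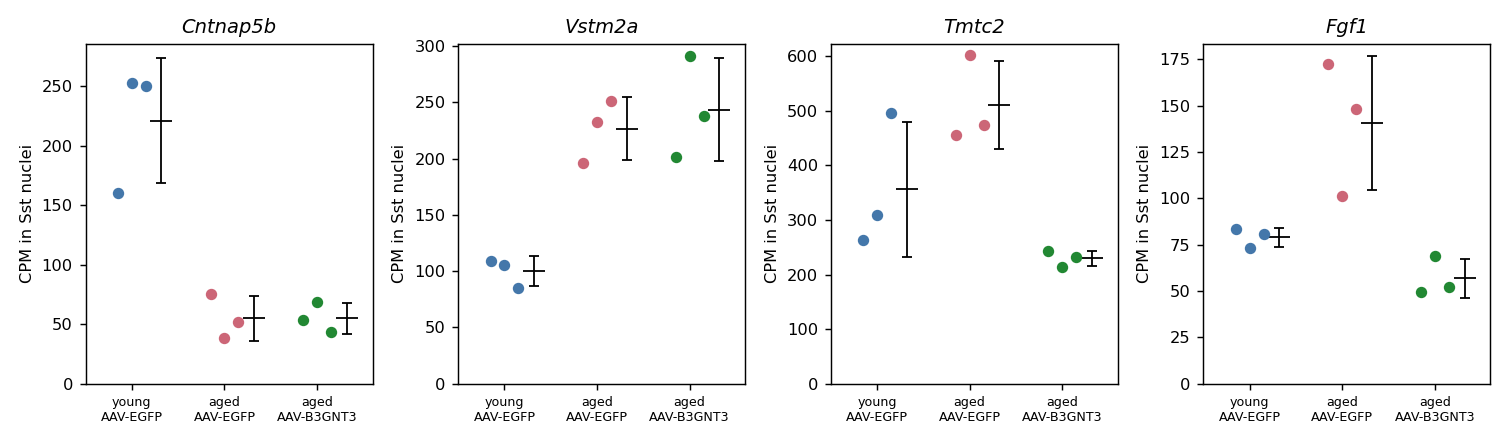
CPM in the Sst nuclei of each of the 9 mice for the 4 genes called with age (Cntnap5b, Vstm2a) or with AAV-B3GNT3 (Tmtc2, Fgf1); points are mice, horizontal lines means and bars SD (n = 3). Cntnap5b is lower and Vstm2a higher in all 6 aged mice than in the 3 young mice, and Tmtc2 and Fgf1 are lower in aged AAV-B3GNT3 than in aged AAV-EGFP mice.

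The marker genes of the class showed no called change. Lhx6 stood at 40.7 to 76.9 CPM in young, 45.2 to 71.3 in aged AAV-EGFP and 61.4 to 95.2 in aged AAV-B3GNT3 mice. Nxph1 ran from 2288 to 3197, from 2659 to 3831 and from 2816 to 3368 CPM. Both overlapped between all groups. Grin3a had 1063, 773 and 738 CPM in young and 1333, 1313 and 1309 in aged AAV-EGFP mice without overlap, as had 17.0% of the genes tested. Its change of 0.71 did not pass (SE 0.22, edgeR adjusted p = 0.217). Of 20 transcription factors of the MGE lineage 11 could be tested and 0 were called. With age 2 had an unadjusted p under 0.05 (Npas3 0.49 and Sox6 0.43, edgeR adjusted p = 0.374 and 0.437), against 10.7% of all genes. With AAV-B3GNT3 1 had (Npas3 -0.47, edgeR adjusted p = 0.632), against 6.82% of all genes.

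Pathway lists were read by how many members had an unadjusted p under 0.05, a level reached over all genes by 5.44% higher and 5.28% lower with age and by 2.71% higher and 4.11% lower with AAV-B3GNT3. All lists were chosen with earlier results of these data known, so their counts are not independent evidence. Of 24 peptide and subtype genes 9 could be tested. With age 1 was past that level in each direction (Igf1 0.68 and Tacr1 -2.07, edgeR adjusted p = 0.455 and 0.464), and the median was 0.47. With AAV-B3GNT3 the 2 past it were Npy (-0.95) and Reln (-0.62, edgeR adjusted p = 0.522 and 0.624), and the median was 0.09. Of 15 genes for peptide processing and dense-core vesicles 11 could be tested, and those past that level were Ptprn (-0.74) and Pcsk1 (-0.84) with age and Pcsk1 (1.23) with AAV-B3GNT3 (edgeR adjusted p = 0.217, 0.444 and 0.333). Of 22 tested glutamate receptor genes 4 were higher and 1 lower with age at an unadjusted p under 0.05 (background 5.44% higher and 5.28% lower), with a median of 0.12 against 0.00 for all genes. With AAV-B3GNT3 0 were higher and 5 lower (background 2.71% and 4.11%), with a median of -0.22. Examples were Grik2, Grm5 and Grin3a.

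Of 28 tested genes for synapse adhesion, 3 were higher and 3 lower with age and 0 higher and 5 lower with AAV-B3GNT3 (such as Adgrl3, Cntn4 and Lrrtm4) at an unadjusted p under 0.05 (background 5.44 and 5.28% with age, 2.71 and 4.11% with AAV-B3GNT3), and of the list Cntnap5b with age passed adjustment. Of 43 tested ion channel genes 1 was past that level in each comparison (Kcnmb2 0.59 with age and Kcnc1 -0.71 with AAV-B3GNT3), and of 13 tested GABA receptor genes 0 were. The heat shock list had 8 tested genes with a median of -0.55 with age and -0.03 with AAV-B3GNT3. With age Dnaja1 (-1.03) and Hspa4 (-0.66) were past the unadjusted level and did not pass adjustment (edgeR adjusted p = 0.242 and 0.37). Of 10 tested somatostatin receptor and effector genes 1 was past the unadjusted level in each comparison, against 10.7 and 6.82% of all genes. These were Adcy8 with age (0.64) and Gnao1 with AAV-B3GNT3 (0.61), at edgeR adjusted p = 0.417 and 0.522.

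Of 6 neuronal genes that the study named, 4 could be tested in Sst nuclei, and because the study chose them on these samples their direction is not independent evidence. Rims4, a presynaptic active zone protein, stood at 115, 81.4 and 80.6 CPM in young, 43.1, 43.8 and 62.4 in aged AAV-EGFP and 87.3, 99.7 and 79.4 in aged AAV-B3GNT3 mice. The aged AAV-EGFP values were the 3 lowest. The log2 changes were -0.79 with age (SE 0.28, edgeR adjusted p = 0.32) and 0.67 with AAV-B3GNT3 (SE 0.26, edgeR adjusted p = 0.601). The log2 values of Smad1 were -0.94 with age and 0.53 with AAV-B3GNT3 (edgeR adjusted p = 0.371 and 0.841), and those of Foxo3 were -0.62 and 0.60 (0.501 and 0.732). The median of the 4 genes was -0.79 with age and 0.57 with AAV-B3GNT3, and 0 were called. In the MGE gate 5 could be tested and 0 were called, with 3 lower with age and 3 higher with AAV-B3GNT3 at an unadjusted p under 0.05 (Foxo3 -0.58 and 0.61, Rims4 -0.42 and 0.48, Smad1 -0.51 and 0.48, background 7.17% lower and 5.21% higher). These comparisons share the aged AAV-EGFP mice. Outside the GABA gate Rims4 was also lowest in aged AAV-EGFP mice, at 24.3 to 32.6 CPM against 38.6 to 49.4 in the other 6.

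Gene lists were also read in the larger MGE gate. They were chosen with earlier results of these data known, so the counts are not independent evidence. The part of the Sst nuclei held by the gate in these counts was not tested. Of 33 tested synapse adhesion genes 2 were higher and 1 lower with age at an unadjusted p under 0.05 (background 7.94% higher and 7.17% lower), with a median of 0.14. Of these genes 12 were lower and 2 higher with AAV-B3GNT3 at an unadjusted p under 0.05 (background 6.99% lower and 5.21% higher), with a median of -0.26. Of 22 glutamate receptor genes 5 were higher and 1 lower with age, with a median of 0.14, and 9 were lower and 1 higher with AAV-B3GNT3, with a median of -0.23. The 2 comparisons share the aged AAV-EGFP mice. Of 37 cytosolic ribosomal protein genes, of which 1 could be tested in Sst nuclei, 15 were higher and 0 lower with age, with a median of 0.75. With AAV-B3GNT3 0 of these were higher and 11 lower, with a median of -0.615. The median over all genes was 0.00 with age and 0.02 with AAV-B3GNT3, and 0 genes of these 3 lists passed adjustment in edgeR.

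Whether Sst nuclei changed differently from Pvalb nuclei was tested directly, with the mouse as a block. Of 5319 genes 0 differed in their change with age or with AAV-B3GNT3 in edgeR at an adjusted p under 0.05, and 287 (5.40%) and 164 (3.08%) did at an unadjusted p under 0.05. The Cntnap5b difference was -2.54 (SE 0.51, edgeR adjusted p = 0.19). Pvalb nuclei numbered 4 to 29 per library, which limits this comparison.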

How the data were processed

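Single-nucleus RNA-seq (10x Chromium 3' chemistry, nuclei sorted as Hoechst-positive singlets) from pooled cortex and hippocampus of 9 mice was used. The deposited matrices hold UMI counts per gene and barcode, aligned by the authors to mm10. The matrix headers name Cell Ranger 7.2.0 and the submitters' processing notes Cell Ranger 4.0.0. The removal of free RNA and of doublets described for the study had not been applied to the deposited counts, and whether intronic reads were counted is not given in the sources used here.

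Nuclei were gated as stated in the report. UMIs of a mouse's Sst nuclei were summed, and 4795 genes passing filterByExpr (minimum count 10) were tested by quasi-likelihood in edgeR 4.0.16 (robust, TMM, all 9 libraries, two-sided, Benjamini-Hochberg threshold 0.05). Genes that define the gate were not tested. CPM were scaled by total UMIs without TMM, and SE was derived from the F statistic. Summed UMIs per mouse, 122821 to 867376, set the precision. Replicates were separate mice. Shares were compared by exact permutation tests. The fit was tested on simulated data with the Sst sums: with age, 2.16% of changed genes were recovered at a log2 change of 0.585, 35.6% at 1 and 89.4% at 2.

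Named genes were, per comparison and direction, the 10 largest called changes with a mean of at least 10 UMIs per library and groups that do not overlap (where under 5 were called, also the 5 smallest p, as values), examples from the gene lists, class markers and genes the study named. The members and all gene lists were chosen with earlier results of these data known. Other settings were DESeq2 1.42.0, RLE scaling, no filter, only the groups compared, a replicate block, each library left out, at least 4 Sst UMIs, Pvalb and glutamate transporters at 0, no upper limit on genes, removal of likely doublets and thinning. The MGE gate and the Meis2 limit were added after the data were seen. Some genes that the naming rule selects are not reported here.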

Additional observations from a re-analysis of the deposited data

How the results depend on the processing

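Sst nuclei gave few molecules per mouse, so changes below a doubling were mostly out of reach, and counts of called genes moved with most settings. With age, 2 genes were called, against 11 with DESeq2, 79 with no filter on low counts, 1 with only the 2 groups compared, 7 with Pvalb and both glutamate transporters at 0, 0 with no upper limit on genes (609 at an unadjusted p under 0.05), 1 without likely doublets, 1 with Meis2 under 5 UMIs, 40 in the MGE gate, and 1 to 10 with each library left out. Without young replicate 1, young replicate 2 and aged AAV-EGFP replicate 1 the counts were 8, 10 and 8. With AAV-B3GNT3, 2 were called, against 1 with DESeq2, 32 with no filter, 5 with only the 2 groups compared, 0 with the replicate block, 0 with at least 4 Sst UMIs (where young replicate 2 has no nuclei and is dropped), 1 with Pvalb and glutamate transporters at 0, 0 with no upper limit on genes (360 unadjusted), 28 in the MGE gate, and 0 to 2 with each library left out (0 without aged AAV-EGFP replicate 1 or 3 or aged AAV-B3GNT3 replicate 2). For these moves the cause was not tested, and the MGE gate differs both in the number of nuclei and in which nuclei it holds. The fit with no filter moved the median of all genes with age to 0.23 (log2), against 0.00 with the filter.

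The difference from Pvalb nuclei was 0 genes with age, 10 with no filter, 3 without likely doublets, and 0 to 6 with each library left out; with AAV-B3GNT3 it was 0 to 0. The exact permutation p for the share of kept nuclei ran from 0.0143 to 0.0357 with each library left out and for the share of GABA-gated nuclei from 0.0107 to 0.0679, and in the MGE gate they were 0.514 and 0.718. The log2 difference of Sst in MGE-gated nuclei, a description, ran from 1.36 to 1.65 with age and from -1.49 to -1.17 with AAV-B3GNT3 with each library left out. Cntnap5b stood at 0.223 in the MGE gate, where 117 of the 780 nuclei were Sst nuclei. That value does not show a reversal within Sst nuclei.

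Deviations of same-numbered mice correlated at -0.134 to 0.0958, and those of mice with different numbers at -0.0863 to 0.135. With 11 to 72 Sst nuclei per mouse, these values cannot decide whether replicate numbers pair the mice. With the replicate block 2 genes were called with age (Cntnap5b and Homer1, whereas Vstm2a had an edgeR adjusted p = 0.055) and 0 with AAV-B3GNT3, and the exact permutation p of both shares was 0.0278. Of 388 other fits of single named genes 329 kept direction and side of the threshold, 33 lost the call and 25 gained it. Most of these genes were not called in the main fit and kept their side by staying uncalled. Of the called genes, Vstm2a kept its call in 8 of 20 fits, Tmtc2 and Fgf1 in 10 of 20 each and Cntnap5b in 16 of 18. The 1 that reversed was Cntnap5b in the MGE gate. A further 5 DESeq2 values without an adjusted p, Cntnap5b included, were not counted.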

Other observations

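Other gene groups were read in the 780 MGE-gated nuclei, where more genes could be tested and Sst plays no part in the gate. With age 27 genes rose and 13 fell of 8924 (0.448%) in edgeR at an adjusted p under 0.05. Sst itself was among the genes tested. Fth1, the ferritin heavy chain, stood at 12.4, 17.6 and 21.8 CPM in young, 30.6, 60.03 and 52.3 in aged AAV-EGFP and 12.3, 22.4 and 22.4 in aged AAV-B3GNT3 mice. It rose with age by 1.55 and was lower with AAV-B3GNT3 by -1.49 on the log2 scale (edgeR adjusted p = 0.0211 and 0.0216), comparisons that share the aged AAV-EGFP mice. Tuba1a, an alpha-tubulin, and Jund, an AP-1 factor, rose with age by 1.89 and 2.15. Outside the GABA gate Fth1 ran from 46.6 to 62.0, 104 to 150.0 and 45.2 to 64.0 CPM in the same groups, so its aged AAV-EGFP values were highest there too.

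The chaperone genes Hsph1 and Hsp90b1 fell with age in MGE-gated nuclei, by 1.35 and 0.89 on the log2 scale (edgeR adjusted p = 0.0211 and 0.0335). They were the 2 called of 15 tested chaperone genes, against 0.146% of all genes called lower, and the median log2 change of the 15 was -0.12, with 6 of them above 0. Hsph1 had 60.7, 45.4 and 68.3 CPM in young, 24.2, 22.4 and 19.8 in aged AAV-EGFP and 23.6, 52.3 and 30.9 in aged AAV-B3GNT3 mice, and outside the GABA gate it was also lower in aged AAV-EGFP (29.2 to 38.7 CPM) than in young mice (66.9 to 81.3 CPM). The share of UMIs from cytosolic ribosomal protein genes was highest in aged AAV-EGFP mice in all kept nuclei, at 0.0827 to 0.0875% in young, 0.1001 to 0.142% in aged AAV-EGFP and 0.0871 to 0.0965% in aged AAV-B3GNT3 mice.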
